A study of Mus musculus with 14 samples.

Results

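Among 12 mouse osteosarcomas profiled on Affymetrix expression arrays, the 4 with the highest and the 4 with the lowest level of an interferon response were compared. The level, called the score here, is the mean of log2(signal + 30) of Rsad2, Ifit1, Irf7 and Usp18, each read from its brightest probe set (highest mean over the 14 arrays). The members were thus chosen by the measured signals of these 4 genes. The interferon-high group holds osteosarcomas 4, 2, 6 and 9 and the interferon-low group osteosarcomas 1, 12, 11 and 7, so 8 of 12 osteosarcomas and of 14 samples in all are members, and osteosarcomas 5, 10, 3 and 8 lie between the groups. The numbers only name the tumours. In every list of values below, the interferon-high tumours stand in the order 4, 2, 6 and 9 and the interferon-low tumours in the order 1, 12, 11 and 7.

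All 12 osteosarcomas, malignant tumours whose cells lay down bone matrix, had arisen in p53+/- mice, animals that carry a single intact copy of the p53 tumour suppressor gene, so both groups share that genotype. No treatment, strain, age, sex or tumour site is given in the sources used here. The series also holds 1 tumour from such mice that is labelled rhabdomyosarcoma and 1 array of untreated mc3T3 cells, cultured mouse osteoblasts that form no tumours. These 2 arrays enter no test below, but they count in the filter on dim probe sets, which asks for a signal of at least 200 on any of the 14 arrays. Whole tumour RNA was measured, so a lower signal can come from fewer cells of a type or from less RNA per cell, and the arrays cannot tell these apart.

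Interferons are secreted proteins that put cells into an antiviral state. Type I interferons (alpha and beta) act through the receptor chains Ifnar1 and Ifnar2, and the kinases Jak1 and Tyk2 then activate a complex that holds Stat2 and Irf9 and binds interferon-stimulated response elements in the promoters of target genes. Interferon gamma, made mainly by T and natural killer (NK) cells, acts through Ifngr1 and Ifngr2 and on to gamma-activated sites in promoters. In mouse bone, interferon beta is also known as a brake on the formation of osteoclasts, the cells that resorb bone.

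The 4 genes of the score set the groups, so their values are a description and carry no test. The score was 12.16, 10.78, 10.41 and 10.31 in the interferon-high tumours, against 8.89, 8.73, 8.47 and 7.62 in the interferon-low tumours, and 10.22, 10.00, 9.95 and 9.25 in osteosarcomas 5, 10, 3 and 8. The gap at the upper border was small, with 10.31 in osteosarcoma 9, the lowest interferon-high tumour, and 10.22 in osteosarcoma 5 just outside. At the lower border osteosarcoma 1 had 8.89 and osteosarcoma 8, just outside, 9.25. Rsad2, which makes a chain-terminating nucleotide that blocks viral polymerases, had signals of 7395, 2178, 5112 and 2234 in the interferon-high tumours, against 727, 754, 628 and 842 in the interferon-low tumours. Irf7, the transcription factor that amplifies type I interferon production, had 3617, 3396, 1136 and 1544, against 559.6, 418, 328 and 178. Both marker genes are thus well above the interferon-low tumours in each interferon-high tumour. Leaving Rsad2, Ifit1 or Usp18 out of the score gave the same groups, while leaving Irf7 out put osteosarcoma 5 in the place of osteosarcoma 9. The tumour labelled rhabdomyosarcoma scored 11.17 and mc3T3 8.98.

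**Figure D1:**
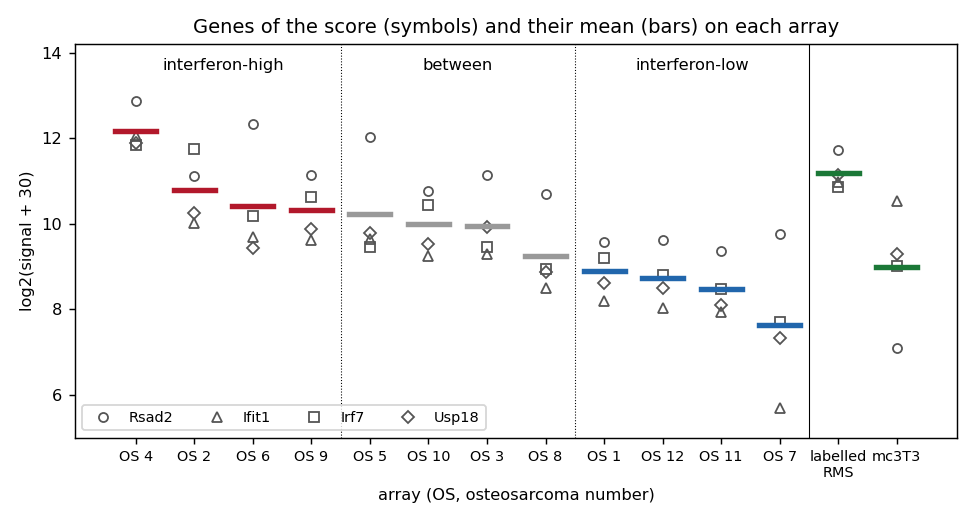
Level of the 4 genes of the score on each of the 14 arrays, as log2(signal + 30), with symbols for the genes and a bar for their mean; interferon-high osteosarcomas stand at the left, interferon-low osteosarcomas to their right after the 4 tumours between. Osteosarcoma 4 has the highest mean, 12.16, and osteosarcoma 7 the lowest, 7.62.

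The groups differed in array measures as well. The median signal of an array was 78.8 to 111 in the interferon-high group, against 67.1 to 83.4 in the interferon-low group (two-sided exact permutation test, p = 0.0571, n = 4 each). The 3' to 5' signal ratio of Gapdh, a sign of RNA integrity that is higher in more degraded RNA, was 0.826 to 0.937 against 0.736 to 0.772, without overlap (p = 0.0286, the smallest that exact permutation of 4 against 4 allows). For beta-actin the same ratio was 1.55 to 1.97 against 1.42 to 2.13 (p = 0.486, exact permutation). The part of these differences in the results below was not tested. The identifiers in the titles start with o, c, m and m in the interferon-high group and with c, m, c and c in the interferon-low group; the labels do not say what the letters stand for.

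The question was which genes other than the 4 of the score separated the groups. In a limma fit over the 12 osteosarcomas in 3 groups of 4, 2 of 11811 genes (0.0169%) were called higher in interferon-high tumours, at an adjusted p under 0.05 and a difference of at least 1 on the log2(signal + 30) scale, and 0 (0%) were called lower. At an unadjusted p under 0.05 limma gave 959 genes, 728 higher and 231 lower. Both called genes, Oas3 and Mx1, belong to the list of interferon-stimulated genes, which has 64 members. Of these, 59 had a probe set and 57 passed the filter on dim probe sets. Because the groups were set by 4 genes of the same response, every result on other interferon genes describes how they vary together with those 4 and is no comparison of independently set groups.

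Oas3, an enzyme that senses double-stranded RNA and makes the messenger that activates RNase L, had signals of 510.5, 373, 183 and 167 in the interferon-high tumours, against 32.9, 5.9, 16.9 and 8.5 in the interferon-low tumours. The interferon-low values lie so near 0 that background cannot be told from expression there, and on the 14 arrays Oas3 reached the minimum signal of 200 in osteosarcomas 4 and 2 and the tumour labelled rhabdomyosarcoma alone. The difference was 2.78 ± 0.37 (SE) on the log2(signal + 30) scale (limma, adjusted p = 0.0483). Mx1, a dynamin-like GTPase that blocks influenza virus in mice, had 589.9, 494, 267 and 338, against 66.6, 119, 62.1 and 82, a difference of 1.97 ± 0.27 (limma, adjusted p = 0.0483). For both genes the lowest interferon-high tumour lay above the highest interferon-low tumour and above all 4 tumours between the groups, at 24.4 to 96.4 for Oas3 and 119 to 212 for Mx1. Both calls stand close to the threshold. Under other settings the adjusted p ranged up to 0.809 for Oas3, whose call was lost in 23 of 34 settings, and up to 0.809 for Mx1, lost in 26 of 35. Leaving out osteosarcoma 1, 3, 7, 8, 9, 10, 11 or 12 alone left 0 calls, leaving out osteosarcoma 2 left 0 in the list and 4 outside it, and leaving out osteosarcoma 4 or 5 gave 1 in the list. Leaving out osteosarcoma 6 gave 3 calls, all in the list.

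Separation without overlap was much more common than these calls. In 24 of the 57 interferon-stimulated genes tested (42.1%) all 4 interferon-high tumours lay above all 4 interferon-low tumours, against 346 of 11811 genes tested (2.93%); the reverse held for 0 of the 57, against 162 of 11811 genes (1.37%). The median difference of the list was 1.05, against 0.06 over all genes, whose central 90% ran from -0.56 to 0.95. The difference was positive in 53 of the 57 and negative in 4, against 56.4% of all genes positive. Without osteosarcomas 6 and 9, 43 of the 57 (75.4%) did not overlap, against 987 of all genes (8.36%). After quantile normalization, which equalises the arrays' signal distributions, 22 of the 57 were higher without overlap (38.6%), against 214 of all genes (1.81%), and 1 of the 57 was lower (1.75%), against 218 of all genes (1.85%).

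Apart from Oas3, the largest differences in the list were those of Ms4a4c, Cmpk2, Oas2 and Ifit3, and none of these 4 passed the test over all genes. Ms4a4c, a membrane protein of immune cells, had signals of 3666, 1898, 1257 and 696 in the interferon-high tumours, against 624, 109, 201 and 83.5 in the interferon-low tumours (difference 2.86 ± 0.57, limma, adjusted p = 0.17). Cmpk2, a mitochondrial nucleotide kinase, had 2545, 465, 612 and 423, against 101, 107, 78.6 and 50.7 (difference 2.80 ± 0.45, limma, adjusted p = 0.11). Oas2, an RNA sensor of the same kind as Oas3, had 1448, 850.5, 207 and 674, against 137, 42.9, 79 and 87.7, and osteosarcoma 6 lay well below the other interferon-high tumours while still above all interferon-low ones. Ifit3, of the same family as Ifit1, had 5268, 1877, 1300.4 and 1316, against 426, 449, 438 and 114 (difference 2.57 ± 0.48, limma, adjusted p = 0.131). For Ifit3, osteosarcomas 2, 6 and 9 lay closer to the tumours between the groups, at 748 to 1190.3, than to osteosarcoma 4.

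Promoters are printed for 4 of the genes that separated the groups and that hold the response element, so that its letters and place can be seen. The windows are the 250 bases before the gene's start in the RefSeq promoter table (assembly GRCm38.p6), 5′ to 3′ in the direction of the gene, and capitals mark every match to the core GAAANNGAAA on either strand, with overlaps allowed (TTTCNNTTTC is the same core read on the other strand). The windows are chr5:120777660-120777909, minus strand for Oas3, chr19:34583279-34583528, plus strand for Ifit3, chr5:120907526-120907775, minus strand for Oas1a and chr8:71537473-71537722, minus strand for Bst2. The RefSeq gene record of Bst2 begins at the same base, while those of Oas3, Ifit3 and Oas1a begin 25, 410 and 19 bases farther upstream, so the distances below count from the table's start.
Oas3: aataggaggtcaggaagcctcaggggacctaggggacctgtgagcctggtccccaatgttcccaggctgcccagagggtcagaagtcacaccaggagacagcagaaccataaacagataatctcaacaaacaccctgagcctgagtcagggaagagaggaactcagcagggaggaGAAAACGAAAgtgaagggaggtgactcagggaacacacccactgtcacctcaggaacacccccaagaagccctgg
Ifit3: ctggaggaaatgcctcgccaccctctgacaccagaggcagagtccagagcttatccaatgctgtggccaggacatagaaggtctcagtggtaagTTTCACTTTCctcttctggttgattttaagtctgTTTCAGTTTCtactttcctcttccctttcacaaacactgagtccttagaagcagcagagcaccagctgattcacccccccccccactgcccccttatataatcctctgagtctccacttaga
Oas1a: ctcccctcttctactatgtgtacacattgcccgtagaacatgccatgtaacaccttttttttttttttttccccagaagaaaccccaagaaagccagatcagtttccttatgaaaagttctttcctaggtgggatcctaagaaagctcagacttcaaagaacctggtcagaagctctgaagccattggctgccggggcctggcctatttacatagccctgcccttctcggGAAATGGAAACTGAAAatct
Bst2: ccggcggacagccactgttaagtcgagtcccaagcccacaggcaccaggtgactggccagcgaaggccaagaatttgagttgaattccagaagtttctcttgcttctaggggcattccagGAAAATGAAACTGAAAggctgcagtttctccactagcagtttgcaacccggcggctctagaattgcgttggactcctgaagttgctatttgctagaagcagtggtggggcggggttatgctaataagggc

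The single match of Oas3 begins 75 bases before its start. Ifit3 holds 2 matches, beginning 156 and 122 bases before the start, both in the opposite orientation. In Oas1a, matches beginning 20 and 14 bases before the start overlap, as do those at 130 and 124 bases in Bst2. Among the interferon-stimulated genes tested, 44 had a promoter in the table, and 10 of these held the core (22.7%), against 299 of 9547 genes tested (3.13%) and 936 of all 27025 genes in the table (3.46%). It was found in 7 of 18 genes of the list whose groups did not overlap (38.9%) and in 3 of 26 whose groups overlapped (11.5%). Over all genes tested, 24 of 278 genes that were higher without overlap held it (8.63%), as did 1 of 114 that were lower without overlap (0.877%). A match describes the letters of the window and is not evidence of binding; Ifih1, Cmpk2 and Oasl2 separated the groups and have no match in theirs.

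Further genes of the response that separated the groups were Oas1a, Oasl2 and Oasl1 of the Oas family and the cytosolic RNA sensors Ifih1 and Dhx58. Oas1a had signals of 8742, 3719, 1117 and 2155 in the interferon-high tumours, against 955, 401, 689 and 347 in the interferon-low tumours (difference 2.37 ± 0.52, limma, adjusted p = 0.247). Its interferon-high values spread widely, with osteosarcoma 4 far above osteosarcoma 6, which itself was close to osteosarcoma 1 of the interferon-low group. Oasl2 had 3669.6, 1739, 734 and 1652, against 569.6, 214, 292 and 135, and Oasl1 had 1604, 705, 253 and 452, against 223, 239, 187 and 85. Ifih1 (also called Mda5), which detects long double-stranded RNA, had 8054, 2624, 1955 and 2116, against 1129, 1366, 757 and 768 (difference 1.62 ± 0.41, limma, adjusted p = 0.349). Dhx58 (also called Lgp2), its partner, had 841, 433, 225 and 255, against 175, 40.0, 80.6 and 6.4. The related sensor Ddx58 (also called Rig-I) overlapped between the groups, with 2095, 1268, 677 and 1266, against 1253, 372, 1268 and 445 (difference 0.75 ± 0.43, limma, adjusted p = 0.704).

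Effectors of the antiviral state showed the same separation in part. Bst2, known as tetherin because it holds budding virus at the cell surface, had signals of 5733, 1906, 1492 and 1772 in the interferon-high tumours, against 1207, 665, 867 and 483 in the interferon-low tumours (difference 1.57 ± 0.44, limma, adjusted p = 0.396). Rtp4 had 9242, 2753, 1588 and 2187, against 998, 813, 1128 and 400.2, and Phf11d 4614, 1519, 861 and 1241, against 490.5, 394, 454 and 206. In Bst2, Rtp4 and Phf11d the groups did not overlap, and osteosarcoma 4 stood apart from the other interferon-high tumours. Parp14 and its family member Parp9, enzymes that add ADP-ribose, had differences of 1.57 ± 0.33 and 1.42 ± 0.35 (limma, adjusted p = 0.205 and 0.33). Herc6, the mouse ligase for the ubiquitin-like Isg15, had 2472, 532, 479.7 and 665, against 394, 262, 308 and 240.2, and osteosarcoma 4 was far above the other 3 interferon-high tumours. Trim30d and Slfn5 also did not overlap, at 294 to 900.3 against 81.3 to 291 for Trim30d and 269.8 to 893 against 108 to 236 for Slfn5. For Trim30d the lowest interferon-high and the highest interferon-low tumour were nearly equal. The Oas, Ifit, Slfn, Gbp, Trim30 and Ms4a4 genes are families of similar sequence, as are Ifi209 and Mndal named below. Whether the probe sets of these families tell close copies apart was not tested.

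The list also holds members that did not follow the score. Ifitm3, which blocks virus entry, had signals of 34974, 31106, 18356 and 23354 in the interferon-high tumours, against 21320.3, 22715, 25864 and 11564 in the interferon-low tumours (difference 0.42 ± 0.30, limma, adjusted p = 0.763). Eif2ak2, the kinase PKR that shuts down translation on double-stranded RNA, had 1321, 819.6, 351 and 819.7, against 633, 399, 502 and 761. Ifitm2 was 14826, 16186, 11365 and 12420.3, against 18287, 16768, 18148 and 12612, a difference of -0.26 ± 0.21. In these 3 genes the groups overlapped. Ifi44l had a negative difference with overlapping groups, at 7.3, 57.5, 6.9 and 1.1, against 441, 43, 138 and 49.9 (difference -1.74 ± 0.53, limma, adjusted p = 0.442). Osteosarcomas 1 and 11 held its highest signals, and the other 10 osteosarcomas did not exceed 57.5; it reached the minimum signal of 200 on osteosarcoma 1 alone. Xaf1 varied most within a group, from 285 to 10214 in interferon-high tumours and from 40.9 to 2872 in interferon-low tumours, and its difference of 1.45 ± 1.16 turned to -0.46 without osteosarcomas 4 and 7. Zbp1, a sensor of left-handed nucleic acid that triggers cell death, reached 988 in osteosarcoma 11 of the interferon-low group, above 586, 471 and 598 in osteosarcomas 2, 6 and 9.

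Within the groups the tumours were not alike. Osteosarcoma 4 had the highest signal of all 12 osteosarcomas in 46 of the 57 genes (80.7%), against 1243 of 11811 genes tested (10.5%). Osteosarcoma 7 had the lowest signal in 33 of the 57 (57.9%), against 1545 of all genes (13.1%). The mean level of the 57 genes was 11.16, 10.33, 9.70 and 10.08 in the interferon-high tumours, against 9.67, 9.02, 9.26 and 8.54 in the interferon-low tumours, on the log2(signal + 30) scale. Osteosarcomas 5, 10, 3 and 8, between the groups, had 9.69, 10.01, 9.87 and 9.88. Osteosarcoma 6, placed in the interferon-high group, therefore lay only just above osteosarcoma 1 of the interferon-low group and below 3 of the 4 tumours between. Without osteosarcoma 4, 24 of the 57 genes were higher without overlap (42.1%), as before, against 584 of all genes tested (4.94%). With all 8 tumours that share of all genes was 2.93%. A smaller group separates more easily, and leaving out osteosarcoma 2 instead gave 4.85% of all genes. The rise therefore says nothing about the list. Without osteosarcoma 4 the median difference of the list was 0.84. Without osteosarcomas 4 and 7 together that median was 0.53, and limma called 1 gene.

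A fit that uses the score as a continuous measure over the 12 osteosarcomas asks which genes track the 4 genes of the score across all tumours. In limma it called 39 of 11811 genes higher (0.33%) and 2 lower (0.0169%), with differences scaled to the distance between the mean scores of the interferon-high and interferon-low groups. Of the 39, 22 are in the interferon-stimulated list and 6 among the interferon gamma GTPases and chemokines. The smallest adjusted p were those of Ifit3 (8.65e-06) and Ifi209 (8.65e-06), a member of the p200 family of interferon-inducible DNA-binding proteins. The remaining 10 genes outside both lists were Cfb, Ifit1bl1, Ms4a4b, Mndal, Mcoln2, Gm4951, Slfn1, C1qtnf9, Limch1 and Slc15a3. Mcoln2 reached the minimum signal of the filter on osteosarcoma 4 alone (502), an interferon-high tumour. C1qtnf9 reached it on the tumour labelled rhabdomyosarcoma alone (367), which enters no test, and stayed under it in every osteosarcoma. Cfb, complement factor B, had signals of 1013, 1490.5, 613 and 476 in the interferon-high tumours, against 240.3, 146, 242 and 55.3 in the interferon-low tumours. Ifi209 had 2734, 1147, 718.3 and 547, against 165, 161, 127 and 51, and its between-group difference of 2.88 ± 0.44 missed the threshold (limma, adjusted p = 0.0742). Limch1, which activates non-muscle myosin, had 4241, 2907, 1565 and 866, against 989, 438, 84.9 and 36.3, so osteosarcoma 9 lay below osteosarcoma 1. Without osteosarcoma 4 the continuous fit called 9 genes higher, 6 of them interferon-stimulated, and 0 lower.

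Ligands of the response were measured near the bottom of the scale. The highest signal among the 12 osteosarcomas was 62.7 for Ifnb1, 20.1 for Ifng, and 73.5, 35.2 and 35.4 for Ifna1, Ifna2 and Ifna4. None of these probe sets reached the minimum signal of 200 on any array, so the ligands were not tested and whether they were expressed cannot be said. The receptor chains were at higher signals, and their groups overlapped. Ifnar1 had 908, 1032, 922 and 754 in the interferon-high tumours, against 1174, 606, 668 and 1401 in the interferon-low tumours, a difference of -0.01 ± 0.26. Ifnar2, Ifngr1 and Ifngr2 differed by -0.05 ± 0.26, -0.35 ± 0.29 and -0.05 ± 0.30 (limma, adjusted p = 0.975, 0.813 and 0.976).

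Signal transducers had smaller differences than the target genes. Of 27 members of the interferon signalling list 19 were tested, 0 were called in either direction and 0 separated the groups. In limma 2 of the 19 reached an unadjusted p under 0.05 (10.5%), against 8.12% of all genes, and the median difference was 0.09. The largest difference was that of Irf9, the DNA-binding part of the type I complex, with 1462, 839, 316 and 898 in the interferon-high tumours, against 492, 175, 307 and 325 in the interferon-low tumours (1.26 ± 0.40, limma, adjusted p = 0.445). Osteosarcoma 6 was the exception among the interferon-high tumours, below osteosarcomas 1 and 7. Stat2 had 525.3, 430.4, 129 and 407, against 391, 155, 158 and 27.8, again with osteosarcoma 6 at the bottom of its group. Irf1, a factor induced by interferon gamma, had 2430.5, 1831, 1298 and 1888, against 2001, 881, 1228 and 897 (difference 0.61 ± 0.33, limma, adjusted p = 0.69). Isg15 is not analysed here.

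In the list of nucleic acid sensors upstream of interferon production most differences were small. The sensors Ifih1, Dhx58 and Ddx58 were counted among the interferon-stimulated genes above and are not in this list. Of 18 list members 14 were tested, 0 were called and 0 separated the groups, with a median difference of 0.21. Limma gave 2 of the 14 at an unadjusted p under 0.05 (14.3%), against 8.12% of all genes. Those 2 were Unc93b1, which carries nucleic acid sensing Toll-like receptors to endosomes, and Cgas, the cytosolic DNA sensor. Unc93b1 had 2215, 2659, 1045 and 1229 in the interferon-high tumours, against 2073, 694, 503 and 325 in the interferon-low tumours (1.21 ± 0.48, limma, adjusted p = 0.565). Cgas had 483, 316, 287 and 381, against 209, 166, 111 and 319 (0.83 ± 0.32, limma, adjusted p = 0.539). Sting1, the adaptor downstream of Cgas, was highest in osteosarcoma 1 of the interferon-low group, with 713, 557, 386 and 646, against 1091, 481, 591 and 154. The endosomal receptors Tlr3 and Tlr7 differed by 0.67 ± 0.34 and 0.19 ± 0.54, with overlapping groups.

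Genes typically driven by interferon gamma had mostly positive differences. In 7 of the 18 tested GTPases and chemokines (38.9%) the interferon-high tumours all lay above the interferon-low tumours, against 2.93% of all genes. In 0 they all lay below, against 1.37%. The median difference was 1.28, with 17 positive and 1 negative, against 56.4% of all genes positive. Limma called 0 of the 18 over all genes, and 12 had an unadjusted p under 0.05, all higher, against 8.12% of all genes in either direction. Cxcl10, which attracts T cells through the receptor Cxcr3, had signals of 4775, 663, 928 and 1029 in the interferon-high tumours, against 516, 197, 223 and 235 in the interferon-low tumours (difference 2.17 ± 0.54, limma, adjusted p = 0.335). Osteosarcoma 4 stood far above the rest, and osteosarcomas 2, 6 and 9 overlapped with the 4 tumours between the groups (484 to 1446). Cxcl9, a ligand of the same receptor, overlapped at 3061, 596, 1383 and 1187, against 433, 239, 157 and 829.9. Ccl5, a chemokine made by activated T and NK cells among others, had 1099, 433, 405 and 331, against 175, 90.9, 119 and 119, without overlap (difference 1.81 ± 0.35, limma, adjusted p = 0.167).

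The immunity-related GTPases, which attack vacuoles that hold intracellular parasites in mice, shared this order. Iigp1 had signals of 2372, 1899, 1036 and 1289 in the interferon-high tumours, against 821, 324, 316 and 401 in the interferon-low tumours. Igtp had 3095, 1713, 1167 and 1427, against 982, 398, 618 and 466, and Irgm1 2323, 1142, 757 and 1110.1, against 729, 442, 633 and 280.3. In Irgm2 osteosarcoma 1 lay above osteosarcoma 6, so that its groups overlapped (2191, 1096, 667 and 960.3, against 706, 241, 309 and 253). Of the guanylate-binding proteins, Gbp3 separated the groups (3375, 1131, 717.7 and 1022, against 605, 341, 548 and 216) and Gbp2 did not (3894, 1535, 986 and 1125, against 1057, 408, 840.1 and 767). Gbp6 had 3256, 254, 332 and 931, against 188, 235, 245 and 62.2, so its lowest interferon-high and highest interferon-low tumours were close together, and osteosarcoma 10 between the groups had 4254, above all other osteosarcomas. Among the 13 tested genes of this list with a promoter in the table, 7 held the core GAAANNGAAA (53.8%) and 4 the gamma-activated site TTCNNNGAA (30.8%), against 7.1% of genes tested for that site.

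Class I antigen presentation had a smaller median difference than the interferon-stimulated list. Of 16 genes of the pathway, 1 separated the groups (6.25%, against 2.93% of all genes), 0 were called, 4 had an unadjusted p under 0.05 (against 8.12% of all genes) and the median difference was 0.48. The separating gene was Nlrc5, the transcriptional activator of class I genes, with 475, 612, 556 and 681 in the interferon-high tumours, against 244, 315, 150.4 and 377 in the interferon-low tumours (1.07 ± 0.41, limma, adjusted p = 0.554). Tap1, a subunit of the peptide transporter, had 1867, 1204, 742 and 859, against 937, 405, 584 and 249.8. The class I heavy chains H2-K1 and H2-D1 had overlapping groups and differences of 0.73 ± 0.43 and 0.27 ± 0.25; H2-K1 was lowest in osteosarcoma 7, at 6218. All 6 tested class II genes had positive differences (median 1.44), against 56.4% of all genes. Yet 0 separated the groups, because osteosarcoma 1 of the interferon-low group was among the highest tumours. For H2-Eb1 the signals were 8568, 13598, 2914 and 2503, against 7560.1, 363, 843 and 1359.7, and for Cd74, the class II invariant chain, 10428, 27826, 5150.3 and 5546, against 15137, 1005, 1499 and 3011.

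Markers of immune cells varied with the groups to different degrees. The macrophage level was fitted as a covariate, and the part of the other immune cell lists in the interferon results was not tested. Of 13 tested T and NK cell genes, 7 were higher without overlap (53.8%, against 2.93% of all genes), 0 were called, and the median difference was 1.05. After quantile normalization 3 of the 13 were higher without overlap (23.1%), against 214 of all genes (1.81%). Gzmb, a granule protease of killer cells, had 746, 118, 118 and 135 in the interferon-high tumours, against 81.1, 33.1, 4.5 and 50.6 in the interferon-low tumours (difference 1.79 ± 0.53, limma, adjusted p = 0.433). Klrd1, an NK receptor chain also called Cd94, had 339, 70.6, 191 and 159, against 65.4, 3.0, 2.7 and 36.8. Nkg7 had 271, 109, 144 and 121, against 4.2, 43.4, 10.1 and 55.9, and the T cell receptor component Cd3g 71.1, 123, 89.3 and 87.2, against 57, 2.7, 27 and 15.1. These signals are low, and the defining marker Cd3e, with 51.4 at most, stayed under the filter. The summed signal of the list, which Thy1 dominates, was 2318 to 3391 in the interferon-high group, against 1094 to 6885 in the interferon-low group.

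Macrophage genes were bright in every osteosarcoma and did not separate the groups. Of 22 tested, 0 were called, 0 did not overlap, and the median difference was 0.57. In limma 2 of the 22 had an unadjusted p under 0.05 (9.09%), against 8.12% of all genes. Csf1r, the receptor on which macrophages depend, had 37043, 26818, 26511 and 22352 in the interferon-high tumours, against 25921, 38701, 19401 and 25113 in the interferon-low tumours. C1qa, a complement component made by tissue macrophages, had 10490.0, 19858, 4614 and 6676, against 16452, 6035, 3708 and 2536. The 2 genes with the lowest p, Aif1 and Ptprc, differed by 1.45 ± 0.50 and 0.86 ± 0.30 (limma, adjusted p = 0.501 for both). The mean level of the list was 12.13, 12.36, 11.39 and 11.48, against 12.13, 11.53, 10.98 and 10.67, and its summed signal 114752 to 209353, against 87479 to 181412. With this level as a covariate limma called 0 genes, and the differences were 2.55 ± 0.40 for Oas3 and 1.88 ± 0.31 for Mx1 (limma, adjusted p = 0.183 for both).

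Other leukocyte lists were uneven between tumours. In the neutrophil list Ltf and Elane did not overlap, but both reached the minimum signal of 200 on interferon-high tumours alone, and 0 of the 8 genes that also reached it elsewhere separated the groups. The mean level was 10.00, 7.95, 11.28 and 7.81 in the interferon-high tumours, against 7.99, 7.04, 8.04 and 7.54 in the interferon-low tumours. Its summed signal was 3090.4 to 66980.5, against 1639 to 6743. Osteosarcoma 6 and, less so, osteosarcoma 4 stood apart. Ngp, a granule protein of developing neutrophils, had 2942, 322, 10656 and 398, against 199.9, 115, 98 and 595, and Ltf, lactoferrin, 676, 99.6, 2103 and 158, against 92.8, 47.8, 67 and 97.1. Of 4 tested B and plasma cell genes 0 separated the groups, with a summed signal of 2515 to 10299, against 692 to 4793, and the B cell markers Cd79a, Ms4a1 and Pax5 stayed under the filter. Ighm, an antibody heavy chain, had 5316, 1727, 7649 and 699.8, against 2676, 519.6, 97.9 and 195, and Jchain 2803, 993, 1127 and 470.2, against 829, 133, 56 and 203. In the dendritic cell list 1 of 7 genes did not overlap (against 2.93% of all genes), which was Cd209a, at 68.5 to 122 against 6.7 to 63.2. The summed signal of that list was 9726 to 17696, against 10622 to 24666, and Xcr1 and Ccr7 stayed under the filter. Siglech, a marker of the plasmacytoid dendritic cells that make much type I interferon, had 224, 37.8, 8.7 and 70.8, against 39.7, 61, 36.7 and 8.7.

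**Figure D2:**
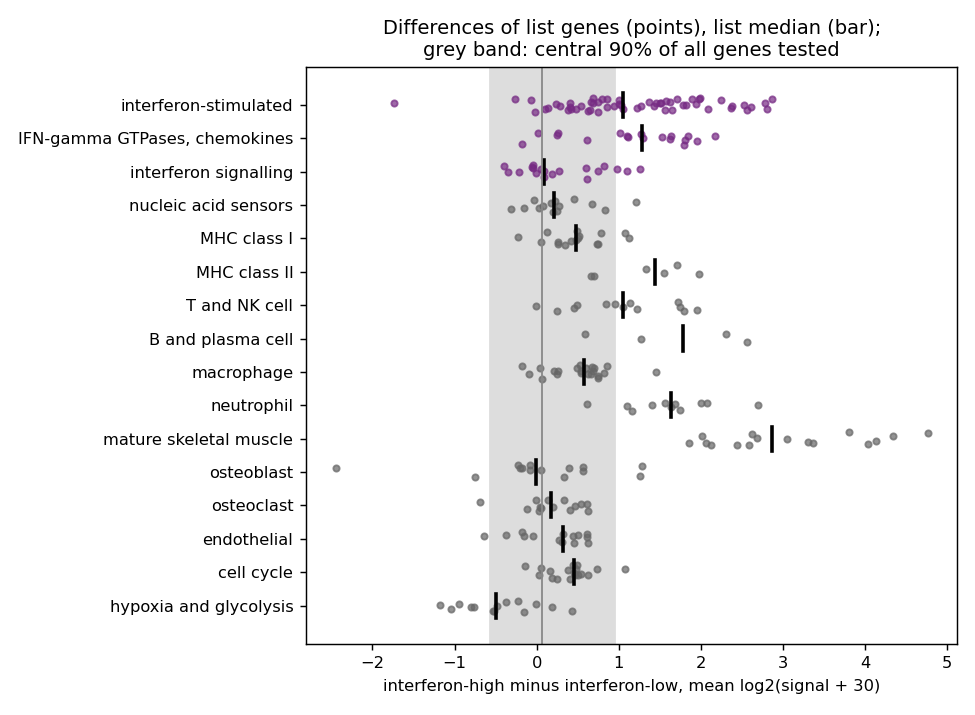
Difference between interferon-high and interferon-low osteosarcomas (mean log2(signal + 30), 4 tumours each) for the tested genes of 16 lists; each point is a gene, the black bar the list's median, the grey band the central 90% of all 11811 genes and the line their median of 0.06. The interferon-stimulated median is 1.05, that of interferon signalling 0.09, and the mature muscle median, which rests on osteosarcomas 6 and 9, 2.86.

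Genes of mature skeletal muscle had the largest list median, 2.86, with all 16 differences positive, against 56.4% of all genes. Of the 16, limma gave 8 higher at an unadjusted p under 0.05, against 6.16% of all genes, and 0 were called or without overlap. The mean level was 6.34, 9.96, 14.25 and 13.45 in the interferon-high tumours, against 8.05, 9.54, 6.49 and 7.62 in the interferon-low tumours. Its summed signal was 1299 to 387417, against 1945 to 18395. Osteosarcomas 6 and 9 were far above every other tumour, while osteosarcoma 4, the highest by the score, had the lowest level of the 12. Myh4, a fast myosin heavy chain, had signals of 24.8, 584, 43807 and 28724, against 77.2, 82.2, 23.1 and 92.1, and Pvalb, a calcium buffer of fast fibres, 88.2, 330.3, 11809 and 11711, against 20.8, 89.2, 62.8 and 32.4. Without osteosarcomas 6 and 9 the median of the list was 0.28, and limma then called 5 genes higher, 4 of them interferon-stimulated. With the muscle level as a covariate it called 14 genes higher, 10 of them interferon-stimulated.

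No bone cell gene of the lists separated the groups. Of 14 osteoblast genes 0 were called or did not overlap, and the median difference was -0.01. Ibsp, bone sialoprotein, had 30210.3, 41630.0, 31754 and 32366 in the interferon-high tumours, against 33057, 49087, 37777 and 36561 in the interferon-low tumours, and Alpl, the alkaline phosphatase of mineralising cells, 5833, 11527, 6358 and 9675, against 10484, 9778, 9839.8 and 6625. Omd, osteomodulin, had the largest difference, with 484, 1752, 466 and 901, against 1354, 3089.8, 7673 and 11257 (-2.45 ± 0.94, limma, adjusted p = 0.547). Of 14 osteoclast genes 0 separated the groups (median 0.17); Acp5, the acid phosphatase that marks osteoclasts, had 49259, 27430.0, 41002 and 34776, against 26171, 53849.8, 30504 and 46372. The bone marker Ibsp was thus bright in all 8 tumours.

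Vessel, proliferation and stress lists gave few separating genes, to be read against 2.93% of all genes higher and 1.37% lower without overlap. Of 14 endothelial genes Kdr, a receptor for vascular growth factor, and Robo4 were higher without overlap, Cldn5, a tight junction protein, was lower (639, 785, 526 and 559, against 1026, 1045, 889 and 966), and Pecam1 differed by -0.16 ± 0.34. Mki67, a protein of dividing cells, was the single cell cycle gene of 18 without overlap, at 2366, 2752, 3572 and 2960.2, against 1860.0, 556, 1401 and 2245 (1.08 ± 0.37, limma, adjusted p = 0.496). Osteosarcoma 12 had the lowest signal of all osteosarcomas in 16 of the 18 (88.9%), against 16.6% of all genes. The mean level of the list was 10.69 to 10.80 in the interferon-high tumours, against 10.71, 9.37, 10.68 and 10.58 in the interferon-low tumours. Hypoxia and glycolysis genes had a median of -0.50, with 12 of 14 negative, 0 called and 0 at an unadjusted p under 0.05. Of all 11811 genes tested, 5149 were negative. Ndrg1 alone did not overlap, at 2681, 2565, 2482 and 2556, against 3385, 2683, 12009 and 3696, and osteosarcoma 11 was far above the other interferon-low tumours. Its highest interferon-high tumour (2681) and its lowest interferon-low tumour (2683) were nearly equal. The median was 0.17 for p53 targets (15 genes), 0.16 for a block of neighbouring genes on chromosome 9 (14), and 0.45 for inflammatory cytokines (13), and 0 genes of these lists separated the groups.

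**Figure D3:**
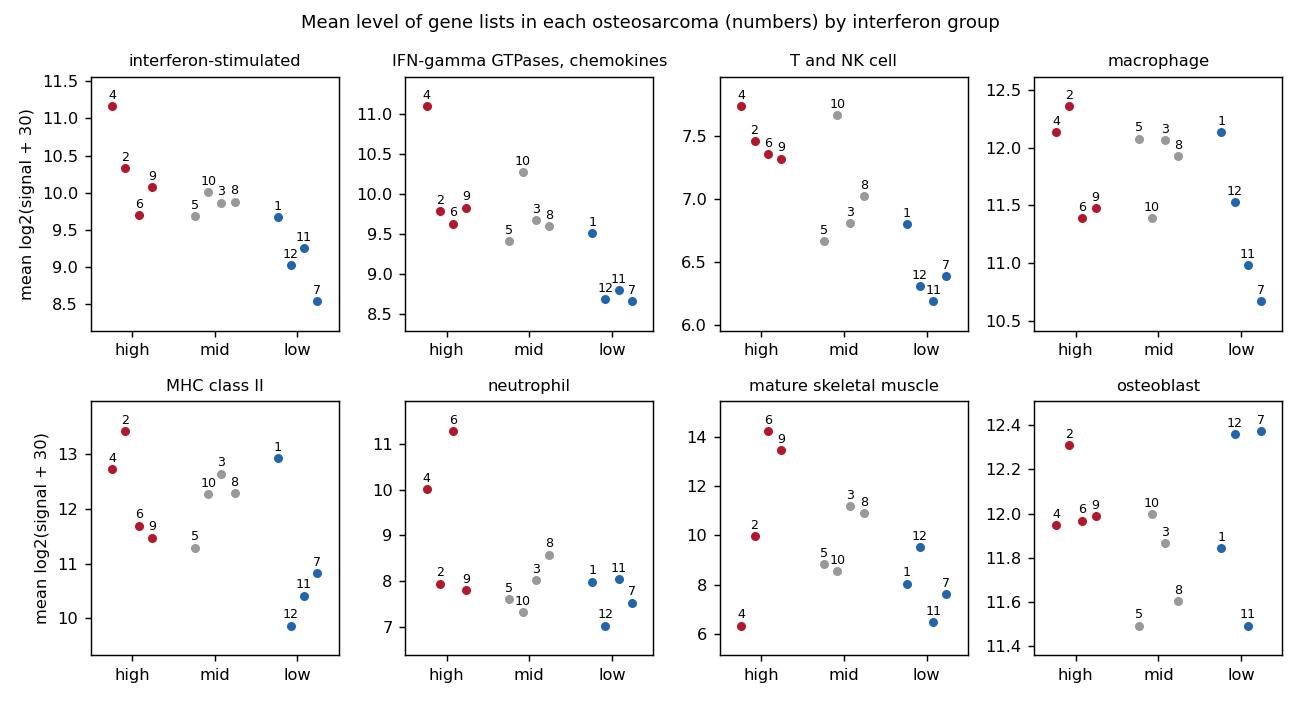
Mean level of 8 gene lists, in log2(signal + 30), in each osteosarcoma by interferon group; numbers name the tumours. Osteosarcoma 4 is highest for interferon-stimulated genes and for the T and NK cell list, osteosarcomas 6 and 9 are highest for mature muscle, and osteosarcoma 1 stands with the interferon-high tumours for macrophage and class II genes.

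Outside the lists, genes that separated the groups were chosen for naming after their values were seen. Klrk1, the activating NK receptor NKG2D, had signals of 247, 137, 128 and 92 in the interferon-high tumours, against 6.1, 11, 1.8 and 14 in the interferon-low tumours (difference 2.19 ± 0.40, limma, adjusted p = 0.128). Ms4a4b, a T cell membrane protein, had 992, 335, 220.3 and 272, against 88.8, 67.7, 24 and 39.2. Mndal, an interferon-inducible protein of the p200 family, had 6596, 3743, 2808 and 2887, against 1543, 794, 1985 and 522. Pygm, the glycogen phosphorylase of muscle, had 376, 361, 3837 and 2319, against 242, 144, 8.3 and 315, highest in osteosarcomas 6 and 9. Penk, the precursor of enkephalin peptides, had 484, 119, 673 and 845, against 52.3, 114, 77.6 and 56.3, and Col25a1, a transmembrane collagen, 1879, 359.7, 603 and 456, against 31.7, 129.9, 2.9 and 59. None passed the test over all genes in the comparison of groups, with adjusted p from 0.128 to 0.456 for these 6 genes (limma).

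The comparison of groups called 0 genes lower in interferon-high tumours. Without overlap, 346 genes were higher and 162 lower, while after quantile normalization 214 were higher and 218 lower. Nrep, a small protein first described in regenerating neurons, had 1707, 1186, 2008 and 1852 in the interferon-high tumours, against 5196, 4560.2, 6631 and 3219.6 in the interferon-low tumours (difference -1.5 ± 0.27, limma, adjusted p = 0.128). All 4 interferon-high tumours lay below all 8 others. Il12rb2, a chain of the interleukin-12 receptor, had 8.0, 34.3, 11.2 and 10.8, against 133, 59.1, 74.7 and 232, and reached the minimum signal of 200 on osteosarcoma 7 alone. Nt5e, the ectoenzyme CD73 that makes adenosine, had 281, 577, 326 and 653, against 1036, 2306, 1652 and 804. Wls, the carrier that brings Wnt proteins to the cell surface, had 1822, 2496, 3009.8 and 2903, against 4300.1, 7167, 5058 and 5466, and Pdgfrl, a secreted protein related to a growth factor receptor, 381, 2132, 1709.8 and 1793, against 2426, 3394, 2625 and 4390.4. These last 2 were the genes called lower by the continuous fit (-1.03 ± 0.20 for Wls, adjusted p = 0.0439, and -1.59 ± 0.27 for Pdgfrl, adjusted p = 0.0193, limma), and neither was called there without osteosarcoma 4, whose Pdgfrl signal was the lowest of the 12. Plaur, the urokinase receptor, Ogn, a proteoglycan of bone matrix, and Gas1, a growth arrest protein, were lower without overlap, by -1.20 ± 0.39, -1.19 ± 0.46 and -1.25 ± 0.52, with adjusted p of 0.448, 0.547 and 0.577 (limma).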

How the data were processed

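Total RNA of 12 osteosarcomas, a tumour labelled rhabdomyosarcoma and mc3T3 cells was hybridised to 14 single-channel arrays. The deposited values are signal intensities on a linear scale for 45101 probe sets (64 controls), made with GCOS, as the submitters' processing notes say. The sources used here give neither its version nor the background and probe summary steps. Present or absent calls were not used. From the values, each array had been scaled to a mean of 500 after trimming 2% at each end. Titles set the groups, because every description names mc3T3. The labels do not say whether tumours came from separate animals. The p-values take the tumours as independent and could be too small if some shared an animal. The number of arrays limits the precision.

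Here arrays were rescaled to that mean, and log2(signal + 30) was tested, which understates the change of low genes. Symbols came from the platform annotation updated with RefSeq (GRCm38.p6); 34945 probe sets had 1 symbol and 932 several. A gene was read from its brightest probe set among those reaching 200 on any of the 14 arrays, giving 11811 genes beside the 4 of the score. R 4.3.3 with limma 3.58.1 (lmFit, eBayes, two-sided, Benjamini-Hochberg) fitted 3 groups of 4 osteosarcomas with 9 residual and 3.65 prior degrees of freedom. Genes were called at an adjusted p under 0.05 with a difference of at least 1. The script was tested on simulated data.

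The members, the 24 gene lists (428 members, of which 39 have no probe set here and are not analysed) and the tests were chosen with earlier results of these data known. Named were the called genes, per list the called members or else the 2 with the largest absolute difference, and fixed pathway and marker genes; 75 further genes were named after their values were seen. Other settings were offsets, filters, normalization, probe set rule, variance trend, split sizes, scores without a gene, covariates, blocks and left-out tumours.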

Additional observations from a re-analysis of the deposited data

Results flagged for a closer look

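A tumour was set apart where its gap to the nearest other tumour of its group took up more of the group's range than Dixon's 95% critical value for 4 samples allows. This held in 15 of 326 groups of values examined (4.6%), and chance flags about 1 in 20 groups. In the interferon-high group, osteosarcoma 4 was far above the others for Gzmb (746), for Zbp1 (3183) and for the level of the interferon gamma GTPases and chemokines (11.10), and far below them for Pdgfrl (381). Osteosarcoma 2 was far above for Il12rb2 (34.3) and for the osteoblast list level (12.31). In the interferon-low group, osteosarcoma 1 was far above for Aif1 (2638), Slfn5 (236) and the level of the interferon gamma GTPases and chemokines (9.52). Osteosarcoma 7 was far below for Ifit3 (114), Alpl (6625) and the fibroblast and perivascular list level (10.30). Osteosarcoma 11 was far below for Myh4 (23.1). Osteosarcoma 12 stood apart with the lowest cell cycle list level (9.37) and the highest p53 target list level (9.46).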

How the results depend on the processing

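In all, 35 alternative settings were run. Genes called higher (2 in the report) and interferon-stimulated genes called higher (2) both came to 0 with the 5 highest against the 5 lowest, 6 against 6, an intensity trend, groups from the score without Irf7, the identifier letter as a block, the macrophage level with or without the muscle level as covariates, an offset of 1 or 100, only the 8 tumours, quantile normalization, and a signal of at least 200 on 4 osteosarcomas. They were 13 and 4 with 3 against 3, 14 and 10 with the muscle level as a covariate, 39 and 22 with the score as a continuous term (2 lower), 9 and 6 with that fit without osteosarcoma 4, 5 and 4 without osteosarcomas 6 and 9, and 1 and 1 without osteosarcomas 4 and 7. With 1 tumour left out they ranged from 0 to 4 and from 0 to 3, and genes called lower stayed at 0. The letter block, both covariates together, the pairs of tumours and the continuous fit without osteosarcoma 4 were chosen after seeing the data. Of 139 named genes, 124 kept their direction under every alternative that gave a value. The other 15 reversed in at least 1. With quantile normalization the values were Acp5 0.00615. With the mean of the probe sets of a gene the values were Ifnar1 0.10, Ifnar2 0.27, Ifngr2 0.0719. With 3 highest against 3 lowest the values were Ifnar1 0.19, Ifnar2 0.0134. With 5 highest against 5 lowest the values were Ifnar1 0.00131, Ndrg1 0.11. With 6 highest against 6 lowest the values were Csf1r -0.0381, Acp5 0.0391. With groups from the score without Irf7 they were Ifnar1 0.15, Ifnar2 0.071. With the macrophage level as a covariate the values were Sting1 -0.24, Tlr7 -0.64, Csf1r -0.0916, C1qa -0.17, Pecam1 0.0358, Acp5 0.16. With the mature muscle level as a covariate the values were Ifnar1 0.0436, Acp5 0.0221. With the identifier letter as a block the values were Dcstamp -0.25, Ifnar1 0.22, Csf1r -0.17, Alpl 0.0192. Without osteosarcomas 6 and 9 they were Slc4a1 -0.13, Ifnar1 0.0941, Ifnar2 0.0196, Ifngr2 0.049. With the macrophage and mature muscle levels as covariates the values were Sting1 -0.23, Tlr7 -0.73, Csf1r -0.0936, C1qa -0.17, Acp5 0.26. Without osteosarcomas 4 and 7 they were Ifnar1 0.19, Ifnar2 0.11, Ifngr2 0.0352, Sting1 -0.37, Tlr7 -0.26, Csf1r -0.10, Siglech -0.23, Xaf1 -0.46. With the score as a continuous term without osteosarcoma 4 the values were Dcstamp -0.0789, Pecam1 0.0597, Alpl 0.21. With 1 tumour left out the ranges were Ifnar1 -0.20 to 0.19; Ifnar2 -0.28 to 0.11; Ifngr2 -0.23 to 0.12; Tlr7 -0.16 to 0.54; Acp5 -0.19 to 0.16; Csf1r -0.0817 to 0.25; Pecam1 -0.31 to 0.0474; Slc4a1 -0.59 to 1.63; Sting1 -0.26 to 0.61. The cause of these changes was not tested. The interferon-low group holds 1 tumour with an identifier in m, so a fit on those tumours alone was not run. No paired analysis was possible because the labels link no interferon-high tumour to an interferon-low tumour.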

Other observations

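Gene groups of connective tissue and blood were uneven between tumours of the same group. Dpt, dermatopontin of the fibroblast matrix, had signals of 1304, 176, 2149 and 1477 in the interferon-high tumours, against 192, 225, 309 and 67.6 in the interferon-low tumours. Col2a1, the collagen of cartilage, had 6880.2, 839, 14732 and 2328, against 184, 5251, 287 and 625, and Comp, another cartilage matrix protein, 557, 539, 4489 and 815, against 194, 605, 301 and 74; osteosarcoma 6 was highest of the 8 for both. Slc4a1, the anion exchanger of red cells, had 75.5, 45.1, 3445 and 4.0, against 181, 16.8, 46.3 and 89.3, so that a single tumour, osteosarcoma 6, held nearly all of the signal. Lpl, lipoprotein lipase, did not overlap between the groups, at 6763, 3394, 7961 and 4289, against 2704, 1772, 1623 and 1934 (difference 1.41 ± 0.43, limma, adjusted p = 0.442). The tumour labelled rhabdomyosarcoma had an interferon-stimulated list level of 10.71, above every osteosarcoma except osteosarcoma 4, and mc3T3, which holds no immune cells, 9.60, near that of osteosarcoma 1. In mc3T3 the signals were 2006 for Oasl2, 1494 for Ifit3 and 4.6 for Oas3.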
